A study of Mus musculus with 12 samples.

Results

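The colony stimulating factors and their receptors were followed in J774A.1, a line of mouse macrophages from the BALB/c strain, by sequencing of polyadenylated RNA. The set comprises the genes of 3 ligands (Csf1, Csf2 and Csf3) and 5 receptor chains (Csf1r, Csf2ra, Csf2rb, Csf2rb2 and Csf3r), chosen by name from the 11762 genes of the deposited table. All 8 were found, and all 8 passed the filter on low values that left 11745 genes for testing. Csf2 and Csf3 passed it through the LPS-treated libraries, so the number that passed carries no information of its own.

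The 4 groups of 3 biological replicates each were LPS+MP (lipopolysaccharide together with microparticles), LPS (lipopolysaccharide alone), MP (microparticles alone) and control (mock-treated cells). All groups share the same cell line and strain of origin, so the replicates are cultures of one transformed line and not animals. LPS is a component of the Gram-negative outer membrane that is sensed through Toll-like receptor 4. What the microparticles were made of, the doses and the times of exposure are not stated in the labels. In bulk RNA, fewer cells expressing a gene and less of its RNA per cell cannot be told apart.

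Colony stimulating factors are secreted proteins that keep myeloid cells alive, make them divide and steer their maturation. Csf1 encodes M-CSF, on which most tissue macrophages depend, and Csf1r encodes its receptor, a tyrosine kinase. Csf2 encodes GM-CSF, whose receptor pairs the alpha chain of Csf2ra with the beta chain of Csf2rb, a chain shared with the interleukin 3 and interleukin 5 receptors. Csf2rb2 is a near copy of Csf2rb in mice that encodes a beta chain for interleukin 3. Csf3 encodes G-CSF, the growth factor of neutrophils, and Csf3r its receptor. Activated macrophages are a known source of all 3 ligands.

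The Csf1 promoter is shown because Csf1 alone among the 3 ligands was high in every treated group. The window is from RefSeq (GRCm38.p6, chr3:107760420-107760719, minus strand) and runs from 250 bases before to 50 bases after the gene start. Capitals mark the match to the consensus of NF-kB, a transcription factor family that acts downstream of Toll-like receptors.
Csf1: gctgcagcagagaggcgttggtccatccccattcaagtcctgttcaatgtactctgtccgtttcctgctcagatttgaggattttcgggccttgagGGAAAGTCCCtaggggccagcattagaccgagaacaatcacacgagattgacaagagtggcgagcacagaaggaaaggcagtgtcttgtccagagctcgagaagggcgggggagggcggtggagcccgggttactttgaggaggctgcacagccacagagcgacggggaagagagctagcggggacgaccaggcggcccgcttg
The match begins at position -154 from the gene start. Windows were at hand for 5 of the 8 genes (Csf1, Csf2, Csf2ra, Csf2rb2 and Csf3r), and 8.46% of all 32851 promoter windows held the NF-kB consensus on either strand. Among the 5, Csf3r was the other with a match, at -129. The AP-1 letters TGANTCA (in 7.81% of all windows), the interferon-stimulated response element (3.44%) and the TATA letters TATAAA (13.6%) were found in none of the 5. The CRE letters TGACGTCA (1.79% of all windows) were found in Csf2ra, at -92. The RefSeq start of Csf2 lies 232 bases from the start of the transcript in the deposited table, so its window does not cover the sequence next to that start. The same holds for Csf2rb2, whose starts lie 118 bases apart. The starts of Csf3r lie 109 bases apart, with the table's start inside the window, so the -129 of its match counts from the RefSeq start. For Csf1 and Csf2ra both starts were the same.

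Part of the 3′ untranslated region of Csf2 and of Csf3 is shown because both transcripts carry AU-rich elements, the letters through which short-lived cytokine messages are recognised by decay factors. Each window is the 30 bases richest in the pentamer ATTTA, with the pentamers in capitals, counted from the base after the coding sequence (Csf2 from 230 to 259, Csf3 from 24 to 53).
Csf2: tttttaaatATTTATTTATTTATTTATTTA
Csf3: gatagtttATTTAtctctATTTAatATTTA
Csf2 held 9 pentamers in 317 bases, or 28.4 per kb, a density reached by 0.0637% of the 10985 3′ untranslated regions examined. Csf3 held 6 in 669 bases, or 8.97 per kb, which 1.49% of the regions reached. The median of all regions was 1.20 per kb. The nonamer TTATTTATT, present in 7.01% of regions, occurred 4 times in Csf2, overlapping, and in none of the other 7 genes. Csf1 held 4 pentamers in 2111 bases and Csf1r 2 in 654, and the other 4 receptor genes held 0.

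Csf2rb and Csf2rb2 lie side by side on chromosome 15, and their sequences are shown because reads from one can be counted for the other. Over 2631 aligned coding positions 95.2% were identical. The longest identical stretch covered 242 bases (coding positions 2083 to 2324 of both).
Shared: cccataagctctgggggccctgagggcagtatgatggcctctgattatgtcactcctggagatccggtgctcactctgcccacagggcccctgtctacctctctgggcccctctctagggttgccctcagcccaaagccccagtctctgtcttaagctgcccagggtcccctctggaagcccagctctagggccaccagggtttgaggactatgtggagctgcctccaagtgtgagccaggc
The window of 90 bases that differed most held 16 differing bases, in capitals, at coding positions 308 to 397 of Csf2rb and 311 to 400 of Csf2rb2.
Csf2rb: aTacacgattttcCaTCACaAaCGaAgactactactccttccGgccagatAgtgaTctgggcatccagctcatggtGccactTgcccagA
Csf2rb2: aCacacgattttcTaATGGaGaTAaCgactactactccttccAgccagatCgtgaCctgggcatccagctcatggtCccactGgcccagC
Of all 50-base words of the Csf2rb transcript, 18.9% occurred unchanged in that of Csf2rb2, and of all 100-base words 7.16%. How reads that match both were counted is not stated, so the split of reads between the pair is uncertain.

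Levels are given as CPM, a gene's share of the counted reads scaled to a common total. "Rose" and "fell" are used where limma's adjusted p was under 0.05 (Benjamini-Hochberg over the 11745 genes) and the change was over 2-fold, which is 1 on the log2 scale. All log2 fold changes are on the log2(CPM + 1) scale, which understates changes of genes near 0, and are given ± SE. The values in each library summed to between 998867 and 999273 CPM, and sequencing depth could not be read from them. LPS replicate 2 stood apart: 339 genes lay more than 1 (log2) from the mean of its fellow LPS libraries, while replicate 1 had 29 such genes and replicate 3 had 17. All 8 macrophage markers were measured, with summed levels of 5188 to 5343 CPM in LPS+MP, 6632 to 7490.5 in LPS, 5207 to 5551 in MP and 4877 to 5389.8 in control. Of 9 neutrophil markers 3 were measured (S100a8, Camp and Mmp8), summing to 6.24 to 11.2 CPM in LPS+MP, 43.6 to 57.1 in LPS, 2.25 to 3.05 in MP and 3.45 to 4.10 in control, nearly all of the LPS level being Mmp8 (46.8 CPM). Endothelial markers (2 of 3 measured) summed to at most 6.85 CPM and the fibroblast marker Pdgfra (1 of 5) to at most 10.8 CPM, both in LPS. The dendritic cell marker Zbtb46 (1 of 4) reached 8.64 CPM in MP. The part of these markers in the results below was not tested. The listed T cell, B cell, mast cell and epithelial markers were not analysed here.

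**Figure D1:**
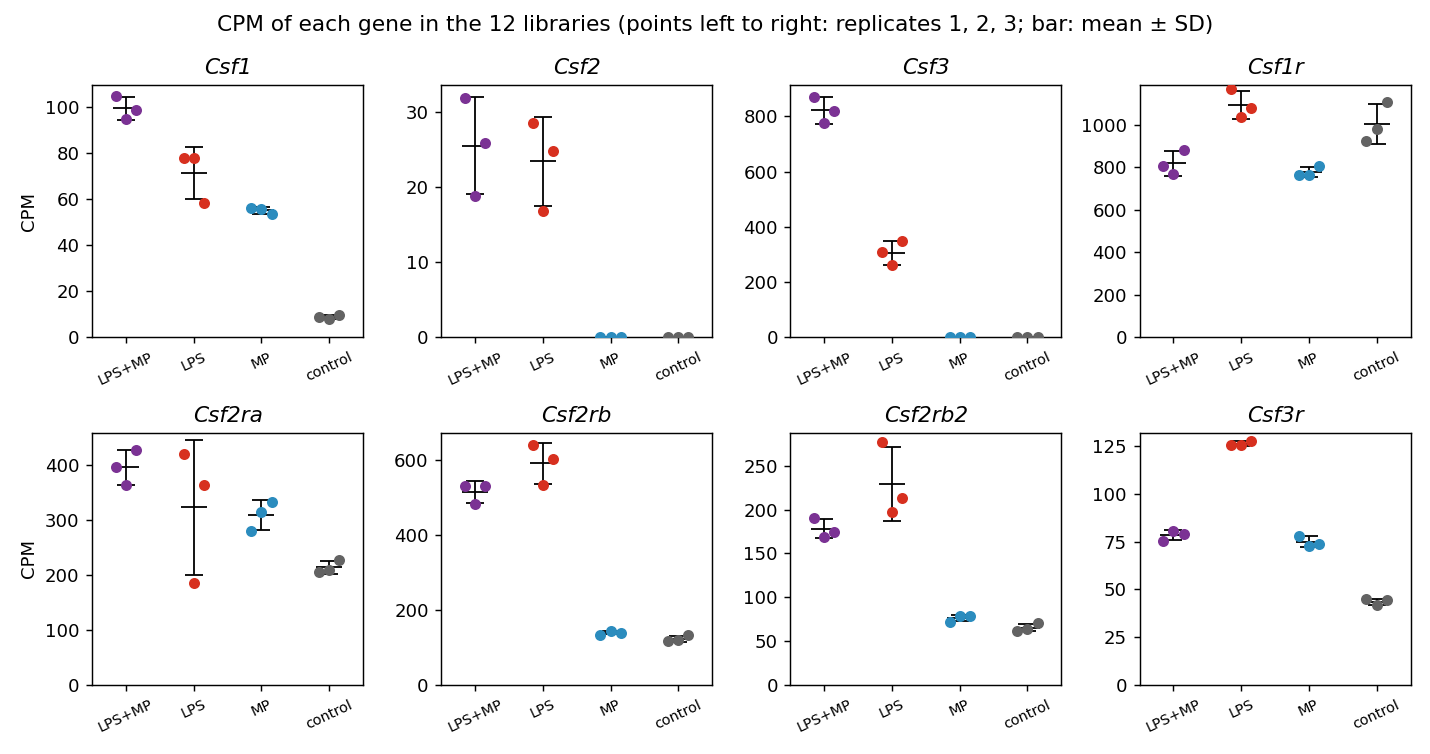
CPM (vertical axes, from 0) of the 8 genes in each library of the LPS+MP, LPS, MP and control groups, with points for replicates 1, 2 and 3 from left to right and bars for the mean ± SD. Csf2 and Csf3 stand near 0 in MP and control cells, Csf1 is lowest in control cells, and LPS replicate 2 sits apart in Csf2ra at 186 CPM.

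Csf1 (ENSMUSG00000014599, chromosome 3, 107741048 to 107760469, minus strand) rose with either treatment. It had 105, 94.8 and 98.5 CPM in the 3 LPS+MP libraries, 77.6, 77.5 and 58.1 CPM in LPS, 56.2, 55.4 and 53.4 CPM in MP, and 8.83, 7.88 and 9.45 CPM in control. The 4 groups did not overlap, and control stood far below the rest. The rise was 2.53 ± 0.11 (log2, adjusted p = 2.68e-10, limma) in MP against control, 2.88 ± 0.11 (adjusted p = 3.31e-12) in LPS against control and 3.37 ± 0.11 (adjusted p = 2.87e-13) in LPS+MP against control. On the linear scale these were 6.31-fold, 8.15-fold and 11.4-fold. Csf1 was the only gene of the 8 to rise with MP alone, a comparison in which 3.67% of all genes tested were called, 1.82% higher and 1.85% lower.

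The MP effect on Csf1 was smaller in cells that also had LPS. LPS+MP against LPS gave 0.49 ± 0.11 (adjusted p = 0.00237, limma), and LPS+MP against MP gave 0.84 ± 0.11 (adjusted p = 6.65e-06), both short of 2-fold. The interaction, which is the MP effect with LPS minus the MP effect without it, was -2.04 ± 0.15 (adjusted p = 5.06e-07). It stayed between -2.18 and -1.97 under every alternative run. In CPM, MP added 28.2 ± 7.10 in LPS-treated cells and 46.3 ± 0.958 in cells without LPS (SE), a difference of -18.1 ± 7.17, so the direction was the same on the linear scale.

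Csf2 (ENSMUSG00000018916, chromosome 11, 54247271 to 54249667, minus strand) was seen with LPS and not without it. It had 31.8, 18.8 and 25.9 CPM in LPS+MP and 28.6, 16.9 and 24.8 CPM in LPS, while all 3 MP and all 3 control libraries listed it at 1.03e-18 CPM, which is 0 for any practical purpose. The housekeeping genes Actb and Gapdh had at least 3825 and 3458 CPM in every library. No fold against 0 is given. The difference in log2(CPM + 1) was 4.58 ± 0.19 in LPS against control (adjusted p = 1.73e-11, limma) and 4.70 ± 0.19 in LPS+MP against MP (adjusted p = 1.09e-11). Csf2 passed the filter on low values only through LPS-treated libraries. Both differences were thus bound to that filter, and their p-values add no support of their own. No difference with MP was detected in the induced level, with 0.12 ± 0.19 in LPS+MP against LPS (adjusted p = 0.667), and these groups overlapped. This SE draws on all 12 libraries, and Csf2 had no spread in MP and control. It therefore understates the spread among LPS-treated libraries (SD 6.50 CPM in LPS+MP and 5.97 in LPS), and a moderate MP effect could have been missed.

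Csf3 (ENSMUSG00000038067, chromosome 11, 98701263 to 98703629, plus strand) had the widest range of the 8. It had 871, 775 and 819.7 CPM in LPS+MP, 307, 260.4 and 349 CPM in LPS, 0.124, 0.147 and 0.0508 CPM in MP, and 0.108, 0.0265 and 0 CPM in control. LPS+MP libraries were all above LPS libraries, and MP and control overlapped near 0. The difference in log2(CPM + 1) was 8.19 ± 0.11 in LPS against control (adjusted p = 2.86e-17, limma) and 9.54 ± 0.11 in LPS+MP against MP (adjusted p = 4.30e-18). As with Csf2, both were bound to the filter on low values, which Csf3 passed only through LPS-treated libraries. Their p-values add no support of their own. MP alone gave 0.08 ± 0.11 (adjusted p = 0.575).

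In LPS-treated cells MP raised Csf3 2.69-fold (1.43 ± 0.11, adjusted p = 1.04e-07, limma). That was the only call among the 8 genes in LPS+MP against LPS, where 4.52% of all genes were called, 0.63% higher and 3.89% lower. Of all calls in that comparison 74 were higher and 457 lower, and 129 and 341 with quantile normalization. The interaction of Csf3 was 1.35 ± 0.15 (adjusted p = 2.00e-05), but with a pseudocount of 0.1 it was 0.88 (adjusted p = 0.0760) and was not called. As a ratio of means MP gave 2.69 with LPS and 2.40 without it. The ratio without LPS comes from overlapping values near 0, with means of 0.107 CPM in MP and 0.0448 in control. The size of this interaction therefore depends on the 1 added to each value. In CPM, MP added 516 ± 37.8 with LPS and 0.0625 ± 0.0436 without it (SE).

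**Figure D2:**
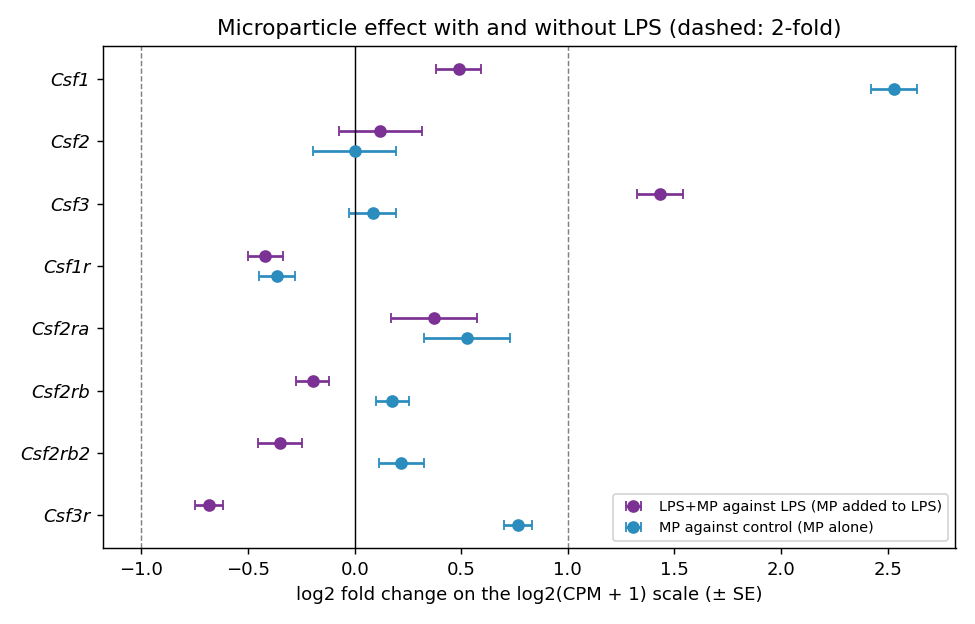
Log2 fold change (horizontal axis, log2(CPM + 1) scale, ± SE) of each gene for LPS+MP against LPS (upper point of each pair) and MP against control (lower point), with dashed lines at 2-fold. The points lie far apart for Csf1 (0.49 and 2.53), Csf3 (1.43 and 0.08) and Csf3r (-0.68 and 0.77), and close together for Csf1r (-0.42 and -0.36).

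Csf3r, the G-CSF receptor gene (ENSMUSG00000028859, chromosome 4, 126024550 to 126044440, plus strand), responded to MP in opposite directions with and without LPS. It had 75.5, 80.7 and 78.8 CPM in LPS+MP, 126, 125 and 128 CPM in LPS, 78.0, 72.6 and 73.9 CPM in MP, and 44.7, 41.9 and 44.2 CPM in control. LPS libraries were highest, control libraries lowest, and LPS+MP and MP libraries shared the range between them. MP against control was 0.77 ± 0.07 (adjusted p = 4.24e-07, limma) and LPS+MP against LPS was -0.68 ± 0.07 (adjusted p = 1.21e-06), neither reaching 2-fold. The interaction did, at -1.45 ± 0.09 (adjusted p = 1.27e-07), and stayed between -1.47 and -1.38 under every alternative run. LPS against control was 1.51 ± 0.07 (adjusted p = 1.96e-11), while LPS+MP against MP was 0.07 ± 0.07 (adjusted p = 0.417). In CPM, MP took away 47.9 with LPS (a difference of -47.9 ± 1.68, SE) and added 31.2 ± 1.86 without it.

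In all, 3 of the 8 genes were called for the interaction, Csf1 and Csf3r downward and Csf3 upward, against 4.7% of all genes (1.02% upward and 3.68% downward). Over all genes these were 120 upward and 432 downward calls, and 193 and 306 with quantile normalization. The Csf3 call was lost with a pseudocount of 0.1. The beta chain genes lay below the size threshold, with -0.37 ± 0.11 for Csf2rb (adjusted p = 0.0252, limma) and -0.57 ± 0.15 for Csf2rb2 (adjusted p = 0.0121). Without LPS the MP effect was slightly positive, 0.18 ± 0.08 for Csf2rb (adjusted p = 0.0879, limma) and 0.22 ± 0.10 for Csf2rb2 (adjusted p = 0.109). With LPS it was slightly negative, -0.20 ± 0.08 for Csf2rb (adjusted p = 0.0628) and -0.35 ± 0.10 for Csf2rb2 (adjusted p = 0.0170). Only the last passed 0.05, and the pair may share reads.

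Csf2rb (ENSMUSG00000071713, chromosome 15, 78325990 to 78351000, plus strand) had 532, 482 and 532 CPM in LPS+MP, 640.3, 533 and 602 CPM in LPS, 134, 143 and 139.9 CPM in MP, and 117, 119.8 and 133 CPM in control. The LPS-treated libraries, with or without MP, were all far above the others. The rise was 4.81-fold in LPS against control (2.25 ± 0.08, adjusted p = 1.71e-12, limma) and 3.71-fold in LPS+MP against MP (1.88 ± 0.08, adjusted p = 1.16e-11).

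Csf2rb2 (ENSMUSG00000071714, chromosome 15, 78282517 to 78305603, minus strand) had 190.1, 169 and 174 CPM in LPS+MP, 277, 198 and 213 CPM in LPS, 72.0, 78.1 and 79.0 CPM in MP, and 61.9, 64.4 and 70.2 CPM in control. Its pattern was that of its neighbour with a smaller step. The rise was 1.78 ± 0.10 in LPS against control (adjusted p = 7.51e-10, limma) and 1.21 ± 0.10, or 2.33-fold, in LPS+MP against MP (adjusted p = 8.00e-08).

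The ratio of Csf2rb to Csf2rb2 was higher wherever LPS was present. It was 2.80, 2.84 and 3.05 in LPS+MP, 2.31, 2.70 and 2.83 in LPS, 1.87, 1.83 and 1.77 in MP, and 1.89, 1.86 and 1.89 in control. Every LPS-treated library exceeded every library without LPS. The log2 ratio differed by 0.47 in LPS against control and by 0.67 in LPS+MP against MP, each with an exact permutation p of 0.10 (two-sided, n = 3 a group), the smallest that design allows. The part of reads that match both genes in this ratio was not tested.

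**Figure D3:**
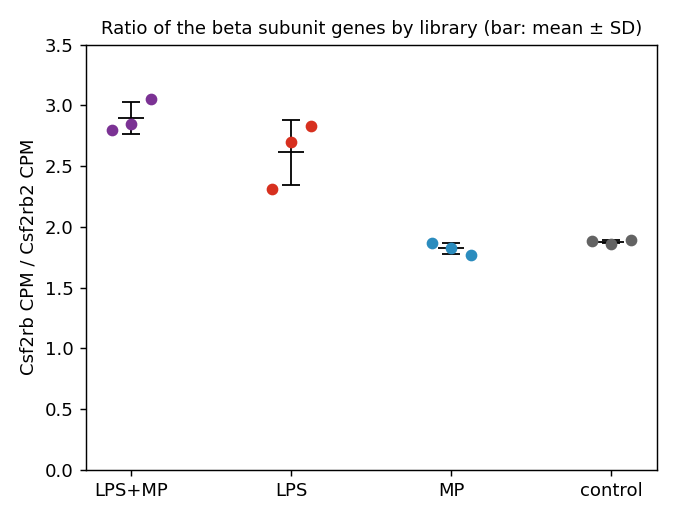
Ratio of Csf2rb CPM to Csf2rb2 CPM (vertical axis, from 0, no unit) in each library of the LPS+MP, LPS, MP and control groups, with bars for the mean ± SD. The 6 libraries with LPS lie between 2.31 and 3.05 and the 6 without it between 1.77 and 1.89.

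Csf2ra, the GM-CSF receptor alpha gene (ENSMUSG00000059326, chromosome 19, 61224402 to 61228418, minus strand), had 396, 364 and 428 CPM in LPS+MP, 421, 186 and 364 CPM in LPS, 280.1, 315 and 334 CPM in MP, and 206, 209 and 227 CPM in control. LPS replicate 2 fell below every control library, and the other treated libraries were all above control. None of the comparisons reached 2-fold, with 0.53 ± 0.20 in MP (adjusted p = 0.0512, limma), 0.51 ± 0.20 in LPS (adjusted p = 0.0394) and 0.88 ± 0.20 in LPS+MP (adjusted p = 0.00129), each against control. Without LPS replicate 2 these were 0.53 ± 0.07 (adjusted p = 5.39e-06), 0.87 ± 0.08 (adjusted p = 9.30e-09) and 0.88 ± 0.07 (adjusted p = 8.11e-10). LPS against control was 0.28 (adjusted p = 0.203) without LPS replicate 1 and 0.39 (adjusted p = 0.146) without LPS replicate 3, so its adjusted p depended on which library was left out. LPS+MP against LPS was 0.37 ± 0.20 with all libraries, 0.60 (adjusted p = 0.0188) without LPS replicate 1, 0.01 ± 0.08 (adjusted p = 0.904) without LPS replicate 2 and 0.50 (adjusted p = 0.0944) without LPS replicate 3. The Csf2ra transcript has a GC content of 61.5%, against a median of 50.4% over all transcripts, and in LPS replicate 2 it lay 1.07 (log2) under the mean of the other LPS libraries (log2 difference -1.07). The interleukin 3 receptor alpha gene Il3ra, with 65.9% GC, lay at -0.96 in the same library. Csf2, with the lowest GC content of the 8 genes (44.8%), lay at -0.63, and Csf3 (56.6%) lay at -0.33. The other 5 genes, with 53.3% to 54.4% GC, lay between -0.30 and 0.20. The part of base composition in this was not tested.

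Csf1r (ENSMUSG00000024621, chromosome 18, 61105572 to 61132149, plus strand) was high throughout and changed least. It had 808, 768 and 883 CPM in LPS+MP, 1168, 1039 and 1081 CPM in LPS, 765, 762 and 805 CPM in MP, and 922, 980.1 and 1108 CPM in control. Both groups with MP lay below both groups without it, with no overlap. The differences were small, -0.42 ± 0.08 in LPS+MP against LPS (adjusted p = 0.00112, limma) and -0.36 ± 0.08 in MP against control (adjusted p = 0.00277), both short of 2-fold. LPS against control was 0.13 ± 0.08 (adjusted p = 0.185), a value that was -0.01 with quantile normalization. The interaction was -0.06 ± 0.12 (adjusted p = 0.768).

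Counted over the set, 6 of 8 genes rose in LPS against control (all but Csf1r and Csf2ra) and 0 fell, in a comparison in which 16.3% of all genes were called, 8.3% higher and 8.05% lower. The median log2 fold change was 2.02 over the 8 genes and -0.08 over all genes. Csf2 and Csf3 passed the filter on low values only through LPS-treated libraries. Their rises in comparisons of LPS with no LPS were thus bound to that filter. They add no support to such counts or to this median. In LPS+MP against control 5 rose (Csf1, Csf2, Csf3, Csf2rb and Csf2rb2) and 0 fell, with 20.8% of all genes called, 8.52% higher and 12.3% lower. Csf3r did not reach 2-fold there (0.83 ± 0.07). In LPS+MP against MP 4 rose (Csf2, Csf3, Csf2rb and Csf2rb2) and 0 fell, with 13.6% of all genes called, 5.71% higher and 7.88% lower. Over all genes these were 671 higher and 926 lower calls, but 758 and 730 with quantile normalization and 791 and 750 with median-ratio scaling. By adjusted p alone, with no threshold on size, 3 of the 8 genes differed in MP against control (38.9% of all genes) and 7 in LPS against control (62.1%). In LPS+MP all 8 differed from control (66.3% of all genes), 5 from LPS (35.2%) and 5 from MP (55.6%), and 5 passed for the interaction (22.0%). These comparisons share libraries, so their counts are not independent of one another.

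**Figure D4:**
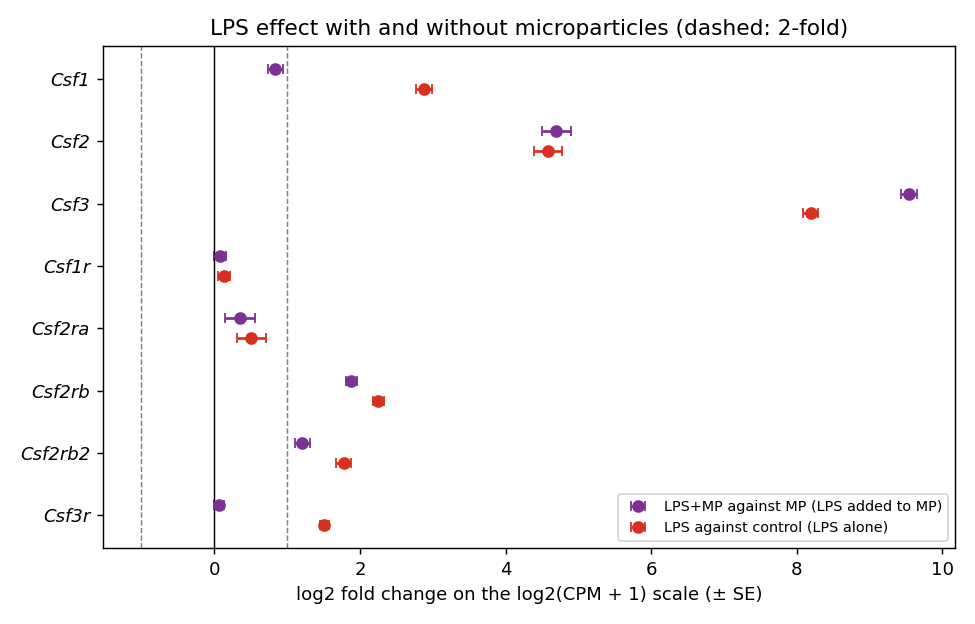
Log2 fold change (horizontal axis, log2(CPM + 1) scale, ± SE) of each gene for LPS+MP against MP (upper point of each pair) and LPS against control (lower point), with dashed lines at 2-fold. Csf3 lies farthest right (9.54 and 8.19), and the points are farthest apart for Csf1 (0.84 and 2.88) and Csf3r (0.07 and 1.51).

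To compare the genes with each other, CPM was divided by the length of the transcript in kb. In LPS+MP cells Csf3 was the highest at 582 ± 33.9 CPM per kb (SD, n = 3), followed by Csf2ra at 214 ± 17.2 and Csf1r at 212 (198 to 228), whose libraries overlapped. Csf2rb came next at 108 ± 6.07, then Csf2rb2 at 37.5 ± 2.29 and Csf2 at 31.9 ± 8.12, which overlapped, and Csf3r at 24.8 ± 0.826 and Csf1 at 23.8 ± 1.18, which overlapped with each other and with Csf2. In LPS cells the order was Csf1r (283 ± 17.0), Csf3 (216 ± 31.5), Csf2ra (175 ± 66.5), Csf2rb (124 ± 11.4), Csf2rb2 (48.3 ± 8.90), Csf3r (40.0 ± 0.401), Csf2 (29.3 ± 7.46) and Csf1 (17.0 ± 2.70). There Csf1r stood clear of Csf3, and Csf2 of its neighbours on either side, while Csf3 overlapped Csf2ra, and Csf2ra overlapped Csf2rb through LPS replicate 2. Csf2rb was clear of Csf2rb2, and Csf2rb2 of 41.7 to 58.5 was clear of Csf3r of 39.7 to 40.4.

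Without LPS the receptor genes led. In MP cells Csf1r was at 201 ± 6.25 CPM per kb (SD, n = 3), Csf2ra at 167 ± 14.7, Csf2rb at 29.2 ± 0.872, Csf3r at 23.7 ± 0.899, Csf2rb2 at 16.1 ± 0.809 and Csf1 at 13.2 ± 0.349, with no overlap between neighbours. In control cells Csf1r was at 259 ± 24.5, Csf2ra at 116 ± 6.09 and Csf2rb at 25.8 ± 1.78. Csf2rb2 and Csf3r were level in control cells, at 13.8 ± 0.907 and 13.8 ± 0.485, and Csf1 followed at 2.09 ± 0.189. Csf1r was at or above 97.1% of all genes on this scale in every group. Csf3 was at or above 99.0% of genes in LPS+MP cells and 0.566% in control cells.

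**Figure D5:**
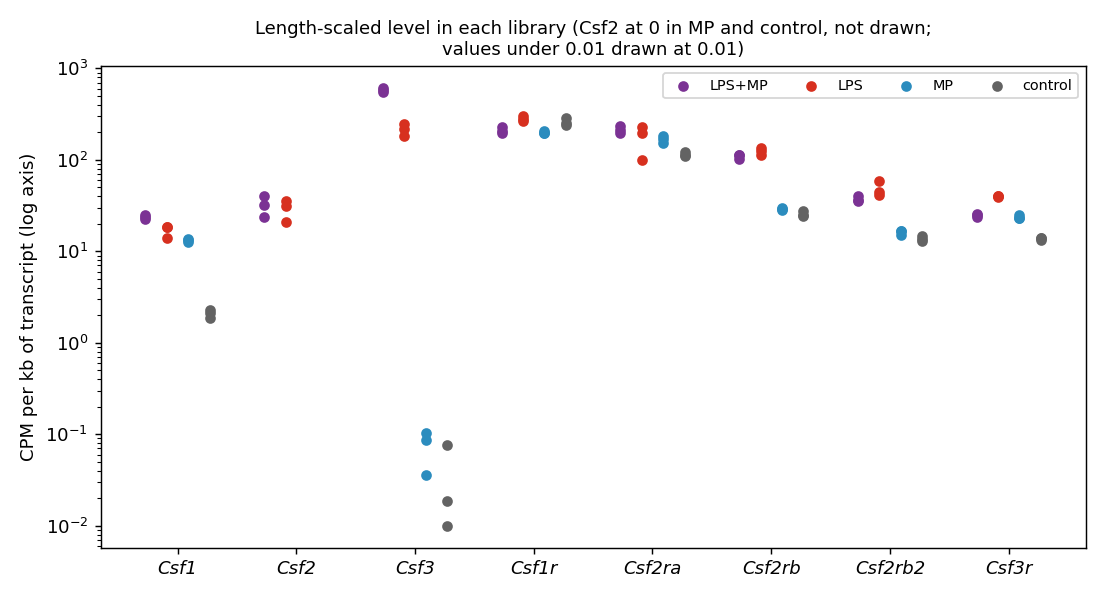
CPM per kb of transcript (vertical log axis) of the 8 genes in each library, coloured by group in the order LPS+MP, LPS, MP and control, with values under 0.01 drawn at 0.01 and Csf2 not drawn in MP and control. Csf3 spans the widest range, from under 0.1 in control libraries to between 548 and 616 in LPS+MP, while Csf1r stays between 197 and 302.

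Around these genes, 6 lists of the same pathway were examined. Of 20 kinases, adaptors and STATs that act under the receptors, 3 rose and 0 fell in LPS against control (median -0.20, against -0.08 over all genes), where 8.3% of all genes rose and 8.05% fell. That is close to the share of all genes called, 16.3%. Among them were the kinase gene Jak2, which serves the GM-CSF and G-CSF receptors, with 367 ± 23.5 CPM in LPS and 32.9 ± 1.11 in control (SD, n = 3), and the transcription factor gene Stat3, which rose by 1.29 ± 0.08. No gene of the list was called in LPS+MP against LPS, where 6 of the 20 passed by adjusted p alone (limma), as did 35.2% of all genes. In LPS+MP against control 3 of the 20 rose and 2 fell. Of all genes 20.8% were called there, 8.52% higher and 12.3% lower, so these counts lie near those shares. The 2 that fell were Pik3cd (-1.48 ± 0.12) and Fes (-1.28 ± 0.14), genes of a phosphoinositide kinase subunit and a cytoplasmic tyrosine kinase.

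Of 11 inhibitors of cytokine signalling 3 rose and 1 fell in LPS against control (median 0.44, against -0.08 over all genes), where 8.3% of all genes rose and 8.05% fell. The rises were those of 3 STAT-induced feedback inhibitors. Socs3, whose product restrains the G-CSF receptor, had 539 ± 112 CPM in LPS and 5.91 ± 0.336 in control (6.27 ± 0.12, adjusted p = 1.65e-15, limma). Cish rose by 2.78 ± 0.18 and Socs1 by 3.72 ± 0.26, and the adaptor gene Sh2b3 fell by 1.01 ± 0.13. The same 3 rose in LPS+MP against MP, where 5.71% of all genes rose. In MP against control, in LPS+MP against LPS and for the interaction 0 of 11 were called in either direction. Of all genes 3.67%, 4.52% and 4.7% were called in these, so 0 of 11 lies near those shares. By adjusted p alone 7, 4 and 3 of the 11 passed, against 38.9%, 35.2% and 22.0% of all genes.

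Transcription factors that drive or restrain the receptor genes moved one by one. Of 8, 1 rose and 1 fell in MP against control, Cebpa (1.39 ± 0.16), a factor of the granulocyte lineage that acts on Csf3r, and Maf (-1.56 ± 0.20), where 1.82% of all genes rose and 1.85% fell. In LPS against control Cebpb rose (1.12 ± 0.19). Cebpa was lower there, short of 2-fold (-0.92 ± 0.16), with 2.07 ± 0.606 CPM in LPS and 4.76 ± 0.599 in control, while Csf3r was highest in LPS. The part of Cebpa in the Csf3r levels was not tested. In LPS+MP against MP Cebpa fell (-1.55 ± 0.16, adjusted p = 8.10e-07, limma), with 4.18 ± 0.624 CPM in LPS+MP and 14.2 ± 1.74 in MP, and Cebpb rose (1.09 ± 0.19). Maf was the 1 gene of the 8 called in LPS+MP against LPS (-1.55 ± 0.20), where 4.52% of all genes were called. Spi1 and Runx1, general regulators of myeloid genes, were called in no comparison.

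Targets of growth signals were divided. Of 8, 3 rose in LPS against control, among them Bcl2a1d, a survival gene whose reads are hard to tell from those of its near-identical mouse copies (3.67 ± 0.16), and the cytokine gene Osm (2.01 ± 0.12). Of all genes 8.3% rose and 8.05% fell there. The cyclin gene Ccnd1 was the 1 of the list that fell, with 89.1 ± 15.6 CPM in LPS and 459 ± 22.7 in control (-2.36 ± 0.10, adjusted p = 2.20e-11, limma). In LPS+MP against LPS Osm rose (1.35 ± 0.12) while Ccnd1 (-1.35 ± 0.10) and Ccnd2 (-1.21 ± 0.14) fell, against 0.63% of all genes higher and 3.89% lower. MP alone raised Osm (1.01 ± 0.12) and lowered Myc (-1.26 ± 0.16).

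Of 8 genes of RNA decay and receptor shedding 2 rose and 1 fell in LPS against control, where 16.3% of all genes were called, 8.3% higher and 8.05% lower. Zfp36, which encodes tristetraprolin, a protein that binds AU-rich elements and promotes decay, had 246 ± 42.2 CPM in LPS and 61.5 ± 4.01 in control (1.97 ± 0.10, adjusted p = 1.49e-10, limma). Zc3h12a, which encodes the ribonuclease Regnase-1, rose by 2.53 ± 0.14, and Zfp36l2, a relative of Zfp36, fell by 1.68 ± 0.07. The same 3 moved the same way in LPS+MP against MP, where 5.71% of all genes rose and 7.88% fell. None of the 8 was called in LPS+MP against LPS (4.52% of all genes called) or in MP against control (3.67%). By adjusted p alone 5 of the 8 passed in LPS+MP against LPS, as did 35.2% of all genes. Zfp36 (0.98 ± 0.10, adjusted p = 2.84e-06, limma) and Zc3h12a (0.73 ± 0.14) were higher there. Zfp36l2 (-0.43 ± 0.07) and the shedding protease genes Adam10 (-0.40 ± 0.09) and Adam17 (-0.30 ± 0.08) were lower. Adam10 and Adam17 were called in no comparison. Of the 5 other ligands and receptor chains on the list, Il3ra was measured and was not called in any comparison. Il34, Il3, Il5 and Il5ra were not analysed here.

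The genes whose levels followed each ligand most closely over the 12 libraries were ranked by Pearson's r of log2(CPM + 1), as a description of these libraries, which share 4 treatments. For Csf1 they were Nfe2l1 (r = 0.995), which encodes a stress-responsive transcription factor, then Tmem38b and Myof. Nfe2l1 had 474 ± 17.5 CPM in LPS+MP, 414 ± 14.8 in LPS, 408 ± 13.7 in MP and 228 ± 7.11 in control (SD, n = 3), so like Csf1 it was lowest in control. For Csf2 they were the TNF receptor gene Tnfrsf1b (0.997), the chemokine gene Ccl5 (0.996) and Serpinb2 (0.996). For Csf3 they were the arginine transporter gene Slc7a2 (0.998), the interleukin 12 subunit gene Il12b (0.998) and Nfkb1 (0.998). Slc7a2 had 821 ± 74.5 CPM in LPS+MP, 502 ± 75.9 in LPS, 15.7 ± 2.42 in MP and 13.3 ± 0.350 in control.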

How the data were processed

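The 12 libraries were grouped by the sample titles. Per the labels' protocols they were directional poly(A) libraries. The tools named, without roles, per the submitters' processing notes are TopHat2 2.1.1, Trimmomatic 0.36, FastQC 11.5, edgeR, DESeq2 and HTSeq. The authors deposited columns headed RPKM, read here as CPM, since each sums to between 998867 and 999273. The deposited logCPM column, read as mean log2 CPM, differed from the log2 mean of the columns with an SD of 0.200, and of 0.988 when multiplied by length. Low values were whole multiples of a step (tolerance 0.05) in 2 of 12 libraries, so no count model was fitted. Coordinates are those of the deposited table, whose build is not given in the sources used here. Of 11671 genes matched by ID to GENCODE M21 (GRCm38), 7027 had the same start and end and 11666 overlapped. Transcript lengths and untranslated regions are from GENCODE M21.

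Genes with at least 1 CPM in at least 3 libraries were fitted as log2(CPM + 1) with limma 3.58.1 (R 4.3.3), 4 group means and a variance trend, checked on simulated data. Promoter windows are from RefSeq, and alignment used Biopython 1.88. Alternatives were a pseudocount of 0.1, no filter or 5 CPM, quantile and median-ratio scaling, a replicate block, no trend, compared groups only, no size threshold, and each library left out. The genes, lists and tests were chosen with earlier results of these data known. Named genes were the 8 members, up to 3 called genes of each list by adjusted p in a comparison, and the 3 genes most correlated with a member. List members with no call, named to account for a list, fall outside that rule, as do differences on the linear scale, both chosen after their values were seen. Adgre1 was matched by its ID. Some members of the lists are counted but not reported here by name.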

Additional observations from a re-analysis of the deposited data

Results flagged for a closer look

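The MP effect with LPS was called as different from that without LPS in 3 of the 8 genes, by limma's interaction test and the size threshold. Over all genes 4.7% were called. By adjusted p alone, 5 of the 8 genes and 22.0% of all genes passed. For Csf1 the difference was -2.04 (log2), for Csf3r -1.45 and for Csf3 1.35. The Csf3 call was lost with a pseudocount of 0.1. Without LPS its values lay near 0, with means of 0.107 CPM in MP and 0.0448 in control. Its ratio of means was 2.69 in LPS+MP against LPS and 2.40 in MP against control. The size of the Csf3 difference thus depends on the 1 added to each value. In Csf3r the MP effect had opposite signs in the presence and absence of LPS, in all 3 libraries of each group.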

How the results depend on the processing

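Each of the 8 genes was refitted under the alternatives in all 6 comparisons, giving 734 values. Of these 724 kept both direction and call, 1 lost its call and 9 changed sign. The call lost was the interaction of Csf3 (0.88 with a pseudocount of 0.1). The sign changes were of values near 0 and not called. For Csf1r they were LPS against control (-0.0088) and LPS+MP against MP (-0.064) with quantile normalization, and the interaction with median-ratio scaling (0.014) and without control replicate 1 (0.0032, within -0.13 to 0.0032 over single libraries left out). For Csf2, LPS+MP against LPS and the interaction were both -0.090 without LPS replicate 2 and -0.049 without LPS+MP replicate 1, within -0.090 to 0.31. For Csf2ra the interaction was 0.076 without LPS replicate 1 and -0.51 without LPS replicate 2, the ends of its range. With no size threshold, genes called numbered 4570 in MP against control (3 of the 8), 7297 in LPS against control (7), 7786 in LPS+MP against control (8), 4138 in LPS+MP against LPS (5), 6527 in LPS+MP against MP (5) and 2583 for the interaction (5). With a pseudocount of 0.1, 807 genes were called in LPS+MP against LPS. The scalings moved the median of all genes by up to 0.11 in LPS+MP against control and 0.13 in LPS+MP against MP. Leaving out single libraries changed no count of the 8. The replicate numbers did not pair the libraries: over 18 pairs of the same number the median correlation of residuals was 0.018 (lowest -0.247, highest 0.158), and for 3 of 12 libraries the best partner bore the same number. With a replicate block, 431 genes were called in MP against control, 1920 in LPS against control and 531 in LPS+MP against LPS, and the calls of the 8 genes did not change in number. P-values measure the spread between cultures of 1 cell line. Depth is unknown, so no counting error could be given, which matters most for Csf2 and Csf3 without LPS.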

Other observations

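Genes that followed the receptors most closely over the 12 libraries, by Pearson's r of log2(CPM + 1), are given as a description. For Csf3r they were the C-type lectin gene Clec4n (r = 0.989), Pgap2 (0.984) and Abca8b (0.979). Clec4n, the gene of Dectin-2, had 82.2 ± 9.12 CPM in LPS+MP, 224 ± 16.8 in LPS, 63.0 ± 9.38 in MP and 11.7 ± 0.316 in control (SD, n = 3), so LPS was highest and control lowest as in Csf3r. For Csf2rb they were Ntng2 (0.999) and the interferon-induced genes Zbp1 (0.997) and Oas3 (0.997), and for Csf2rb2 Dgat2 (0.997), Nlrc4 (0.995) and Pon3 (0.994). The closest genes to Csf1r were Gdpd5 (0.947), Lpcat1 (0.945) and Sptlc1 (0.942). The closest to Csf2ra were Slc3a2 (0.960), Atat1 (0.959) and Rabac1 (0.958).

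The macrophage markers, whose sum changed little between groups other than LPS, moved in different directions. Adgre1, the gene of F4/80, listed in the table under an older symbol, had 771 CPM in LPS+MP, 957 in LPS, 71.5 in MP and 34.8 in control on average. Lyz2, the gene of lysozyme, had 982 CPM in LPS+MP, 1947 in LPS, 2858 in MP and 2393 in control, so it was lowest in LPS+MP. Itgam, the gene of CD11b, had 484 CPM in LPS+MP, 1087 in LPS, 439 in MP and 691 in control. These differences were not tested, and the 3 markers were named after their values were seen.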
